A study of Drosophila melanogaster with 3 samples.

Results

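The genes described here encode the machinery that starts and carries out transcription in the nucleus: subunits of the Mediator complex, TBP-associated factors (TAFs), general factors named TfII, and subunits or associated proteins of RNA polymerases I, II and III (Pol I, II and III). They were measured in OSS cells, a line established from follicle stem cells of the Drosophila melanogaster ovary. Genes were chosen by their symbol alone, and 65 of the 11982 genes named by a probe set of their own fitted: 22 Mediator, 13 TAF, 9 TfII and 21 polymerase genes. All 3 arrays belonged to 1 group of untreated cells of this line growing exponentially in medium with serum, insulin, glutathione and fly extract, so no conditions were compared, and the labels do not say whether the arrays came from separate cultures.

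RNA polymerase II transcribes protein-coding genes, Pol I the large ribosomal RNA precursor, and Pol III transfer RNAs and other short RNAs. At Pol II promoters TFIID, made of the TATA-binding protein and TAFs, recognises core promoter DNA, and TFIIA, TFIIB, TFIIE, TFIIF and TFIIH help to load and open the polymerase. Mediator bridges transcription factors and Pol II through head, middle and tail modules, to which a kinase module binds reversibly. Drosophila also has TAF paralogs that act in the male germline.

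Values are log2 expression levels as deposited, with 2 as the log base taken from their range. They share a lowest value of 2.39 on all arrays and reach 14.75. Odorant and gustatory receptor genes, 112 in all, served as genes taken to be unused in these cells, and 95% of their means lay under the background level of 2.49. Each gene was tested against it with limma (one-sided, Benjamini-Hochberg adjustment over all genes, adjusted p under 0.05), and again against a stricter level 1 log2 unit higher, 3.49. Probe sets differ in affinity, so values of different genes do not rank their transcripts, and genes are compared below by call. Of all probe sets, 67.2% had identical values on the 3 arrays, which makes an SD of 0 an understatement of error. Follicle markers tj, zfh1, Egfr and dec were above the stricter level, and Fas3 was not analysed here. The germline markers vas, nanos, osk, bam and orb lay at 2.39. Of 4 hemocyte markers, Pxn (4.43 ± 0.27, SD, n = 3) and crq (3.54 ± 0.062) were above background, and Hml and eater lay at 2.39. Also above background were elav, of 3 neuron markers, and Mlc2, of 3 muscle markers, while Appl, nSyb, up and Act88F lay at 2.39. The part of hemocytes, neurons or muscle in the results was not tested. The number of arrays limits the precision of every value. In bulk RNA, fewer expressing cells and less RNA per cell cannot be told apart.

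The transcription machinery was detected almost throughout. Of the 65 genes, 61 (93.8%) were above background, where 47% of all 11870 genes tested were. Against the stricter level 41 (63.1%) were above, where 25.5% of all genes were. As a description of the deposited values, which differ in probe affinity, the median of the means was 4.25 in the set and 2.47 over all genes tested, and the means of the set ran from 2.39 to 7.05. Genes not called above background were the Mediator genes MED4 and MED31, the TAF paralog Taf12L and the TFIIA paralog TfIIA-S-2. Identical values on all arrays occurred in 21 of the 65. Of these, 18 were above background, and the same 18 were so when each SD of 0 was replaced by the typical spread of other genes (limma, adjusted p up to 0.013). With that spread 61 of the 65 genes were above background, all of them also called in the reported test, where 43.3% of all genes were. With the receptor gene of highest mean as the level (2.79), 57 were above, and 37.4% of all genes.

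**Figure D1:**
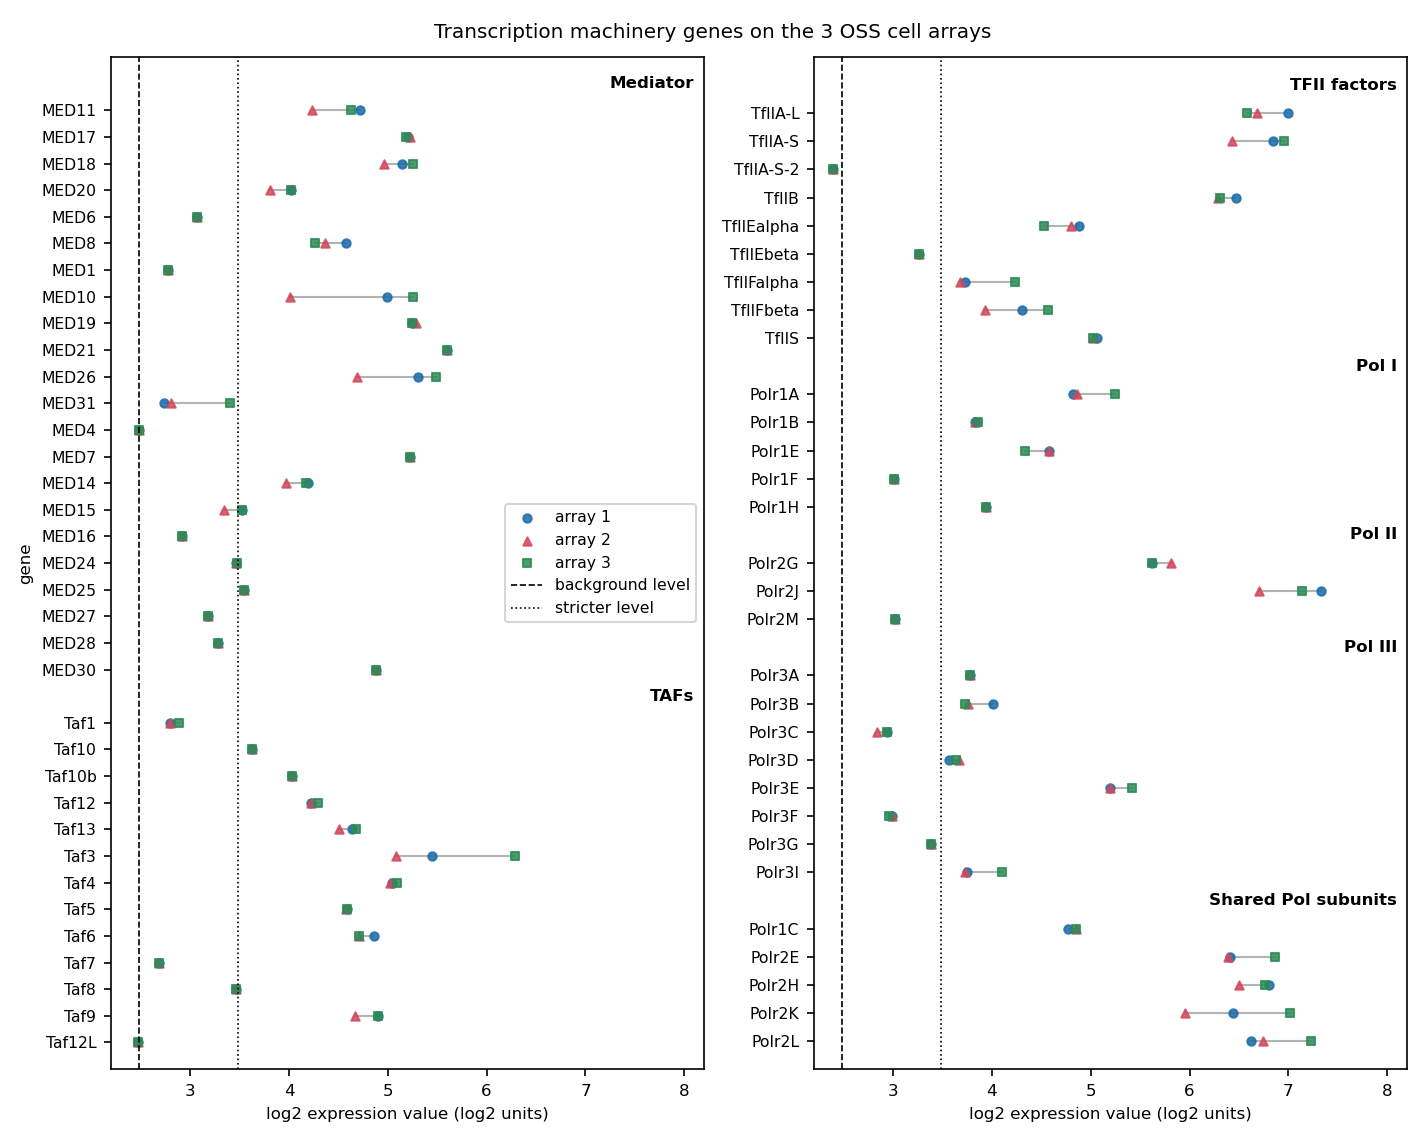
Log2 expression value (x axis, log2 units) of each of the 65 genes (rows, grouped by complex) on the 3 arrays, each array with its own symbol and a grey line over the range; dashed and dotted lines mark the background level (2.49) and the stricter level (3.49). All but 4 genes were called above background, and MED10, Taf3 and Polr2K spread most widely among those called.

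Mediator was above background in 20 of 22 measured genes and above the stricter level in 12, where 47% and 25.5% of all genes were. The head module, which contacts Pol II directly, had all 6 measured genes above background and 5 above the stricter level; module assignments follow mammalian structures. MED17, the central head subunit, measured 5.21, 5.22 and 5.18 on arrays 1 to 3, a spread of 0.021 (SD) around 5.20. MED18 measured 5.14, 4.96 and 5.25, and its partner MED20 4.03, 3.80 and 4.03; these form a movable part of the head. Both were above the stricter level on every array. MED8 averaged 4.40 ± 0.16 and MED11 4.53 ± 0.26 (SD, n = 3). MED6, one of the most conserved Mediator subunits, measured 3.07 on every array, above background and under the stricter level. Calls above the stricter level for MED11 and MED20 were lost without replicate 1 (limma, adjusted p = 0.073 and 0.10) and without replicate 3 (0.068 and 0.073).

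The middle module was mixed, with 6 of 8 measured genes above background and 4 above the stricter level. Of all genes, 47% and 25.5% were above these levels. MED7 and MED21, whose proteins pair to form its hinge, measured 5.22 and 5.60 on every array. MED19, which in Drosophila assists Hox proteins, measured 5.25, 5.28 and 5.25. MED26, which in mammals links Mediator to elongation factors, measured 5.31, 4.69 and 5.49. It was above the stricter level (limma, adjusted p = 0.015), but not without replicate 1 (0.094). MED10 had the widest spread of all 65 genes, at 4.99, 4.01 and 5.26 on arrays 1 to 3. Array 2 stood about 1 log2 unit under the others. MED10 was above background (limma, adjusted p = 0.011), and without replicate 1 it was not (0.065). It was not resolved against the stricter level (0.078), and with SDs of 0 replaced across all genes it was above it (0.044).

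Other middle subunits lay near background. MED1, which binds nuclear receptors in mammals, measured 2.78 on every array, above the reported level; its difference from the receptor gene of highest mean was -0.014 log2 units. MED31 measured 2.74, 2.80 and 3.40, all over the level, with array 3 well over the others. With this spread (SD 0.36) MED31 was unresolved (limma, adjusted p = 0.092), and without replicate 3 it was above background (0.0092). MED4, a core subunit of the middle module, measured 2.48 on every array, a difference of -0.0056 log2 units from the level. It was called below background, as were 49.6% of all genes, but with the SD of 0 replaced it was not (limma, adjusted p = 0.91). With SDs of 0 replaced across all genes, 0% of them were called below background. With its probe set MED4 could not be told apart from background.

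The scaffold and tail genes, which meet activators, were all above background in 8 of 8 cases, where 47% of all genes were. Above the stricter level were 3 (37.5%), not far from the share of all genes, 25.5%. MED14, the scaffold that joins the modules, measured 4.19, 3.97 and 4.17, and its call at the stricter level was lost without replicate 1 (limma, adjusted p = 0.057). MED30 measured 4.88 on every array. MED25, bound by the viral activator VP16 in mammals, measured 3.55 on every array, 0.059 log2 units over the stricter level. With the SD of 0 replaced that call was lost (adjusted p = 0.60). MED15, a target of activators, measured 3.53, 3.34 and 3.53, so that the arrays fell on both sides of the stricter level. MED24 averaged 3.47 ± 0.0069 (SD, n = 3). MED16, MED27 and MED28 measured 2.92, 3.18 and 3.28 on every array, over background and under the stricter level.

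**Figure D2:**
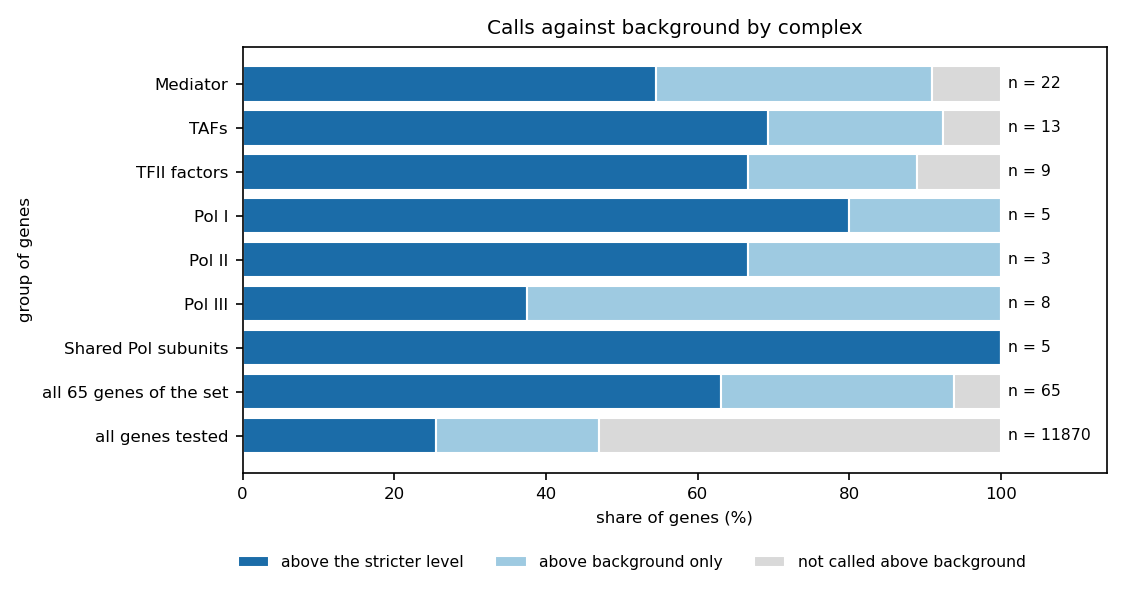
Share of genes (x axis, percent) in each complex that was above the stricter level (dark blue), above background only (light blue) or not called above background (grey), with the number of genes at the right and all 11870 genes tested in the bottom row. The share above background was 88.9% to 100% in the complexes and 47% over all genes.

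The kinase module, listed beside the symbol rule because its genes carry other names, had 3 of 4 genes above background and 1 above the stricter level. Over all genes these shares were 47% and 25.5%, so the count at the stricter level is near the general share. CycC, the cyclin of the module, measured 6.25, 6.20 and 6.25. Its kinase gene Cdk8 measured 2.58 on every array, and was not called with the SD of 0 replaced (limma, adjusted p = 0.18). Of the genes for the large subunits, kto (Med12) averaged 2.76 ± 0.10 and was above background (limma, adjusted p = 0.021). It was not above without replicate 1 (0.067) or replicate 2 (0.054). The other, skd (Med13), measured 2.46, 2.48 and 2.79 and was unresolved (0.43). At the 99th percentile of the receptor genes, CycC alone of the 4 was above, where 42.4% of all genes were.

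All 12 measured TAFs of TFIID and SAGA were above background and 9 above the stricter level, where 47% and 25.5% of all genes were. The SAGA coactivator shares several TAFs with TFIID. Taf4, whose protein pairs with Taf12 through histone-fold domains, measured 5.04, 5.02 and 5.09. Its other probe set measured 3.75 on every array and was above both levels too. Taf12 averaged 4.25 ± 0.044 (SD, n = 3). Another histone-fold pair, Taf6 and Taf9, which touches the downstream promoter element, had values of 4.86, 4.71 and 4.71 for Taf6 and 4.90, 4.67 and 4.90 for Taf9. Taf13, whose partner Taf11 had no probe set of its own, averaged 4.61 ± 0.089, and the WD40-repeat subunit Taf5 averaged 4.58 ± 0.00074.

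Taf3, which in mammals reads trimethylated histone H3 lysine 4, varied more than the other TAFs. It measured 5.45, 5.09 and 6.29 on arrays 1 to 3, with array 3 over the others. It was above the stricter level (limma, adjusted p = 0.021), and without replicate 1 it was not (0.11). Its histone-fold partners are Taf10 proteins, and Drosophila has a pair of such genes, Taf10 and Taf10b, which are next to each other in the RefSeq gene order. Both were above the stricter level, Taf10 at 3.63 and Taf10b at 4.03 on every array. With the SD of 0 replaced Taf10 was not (limma, adjusted p = 0.13). Signal was thus measured for both paralogs, at least over background.

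Genes for the remaining TAFs of TFIID were above background and not above the stricter level. Taf1, the largest TFIID subunit, measured 2.79, 2.79 and 2.89, over the reported level and not resolved from the receptor gene of highest mean (limma, adjusted p = 0.41). Taf7, which binds Taf1 and holds back its enzymatic activity in mammals, averaged 2.68 ± 0.0027 (SD, n = 3), a difference of -0.11 log2 units from that receptor gene. Taf8, a TFIID subunit that pairs with Taf10, measured 3.47 on every array, a difference of -0.021 log2 units from the stricter level.

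The testis TAFs showed little or no signal. These are nht, can, mia, sa and Taf12L, paralogs of Taf4, Taf5, Taf6, Taf8 and Taf12, which are needed for male meiosis. All 5 generally used counterparts were above background, and 4 of them above the stricter level. Over all genes 47% were above background, 49.6% below it and 25.5% above the stricter level, so low values were common in the data. Of the testis genes 1 of 5 was above background and none was above the stricter level, with nht, can and sa at 2.39 on every array. The gene above background was mia, at 2.52 on every array, 0.032 log2 units over the level; with the SD of 0 replaced it was not (limma, adjusted p = 0.62). Taf12L measured 2.48 with 1 probe set and 2.39 with the other, on every array. It was called below background, and with the SD of 0 replaced it was not (adjusted p = 0.83). That replacement left 0% of all genes called below background. Other testis markers were likewise low, with aly at 2.39 and twe unresolved at 2.69 ± 0.17 (SD, n = 3).

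**Figure D3:**
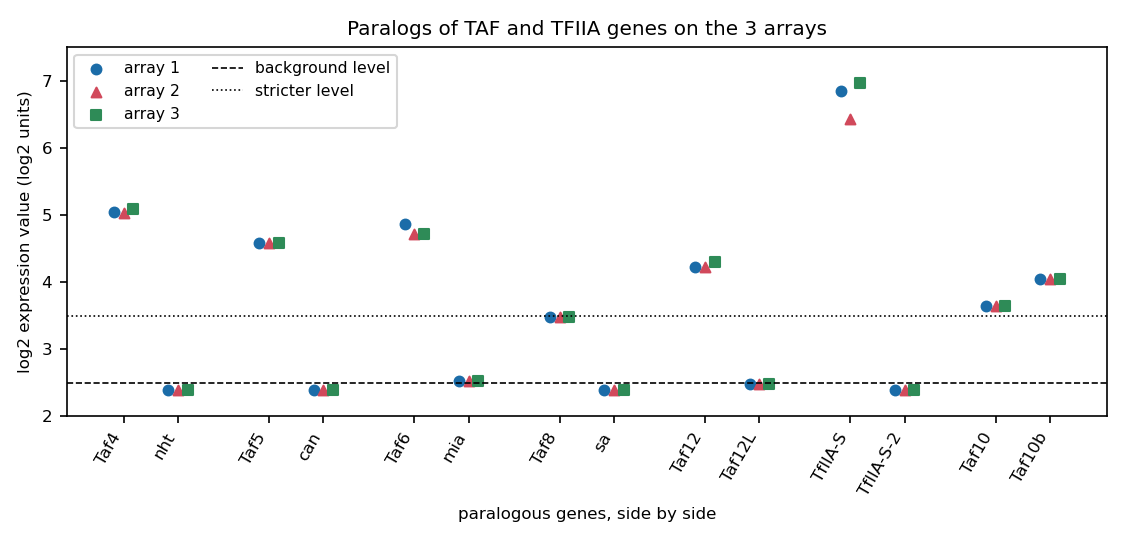
Log2 expression value (y axis, log2 units) of TAF and TFIIA paralogs side by side on the 3 arrays, with the background level (dashed, 2.49) and the stricter level (dotted, 3.49). The testis paralogs and TfIIA-S-2 lie within 0.10 log2 units of background, their counterparts lie over it, and Taf10 and Taf10b both lie over the stricter level.

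Of the 9 TfII genes, 8 were above background and 6 above the stricter level, where 47% and 25.5% of all genes were. TFIIA stabilises TBP on DNA and has a large precursor gene, TfIIA-L, and a small subunit gene with a paralog. TfIIA-L measured 7.00, 6.68 and 6.58, and TfIIA-S 6.85, 6.43 and 6.96. The paralog TfIIA-S-2 measured 2.39 on every array, the lowest value of the data. Thus the small subunits differed in call, with TfIIA-S above the stricter level and TfIIA-S-2 below background. With the SD of 0 replaced, TfIIA-S-2 was not called either way (limma, adjusted p for below background = 0.22). The lowest value differs from the level by only -0.098 log2 units, and with SDs of 0 replaced 0% of all genes were called below.

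TfIIB, which sets the start site with Pol II, measured 6.47, 6.29 and 6.30. TfIIEalpha and TfIIEbeta encode the large and small subunits of TFIIE, which recruits TFIIH. The first averaged 4.74 ± 0.18 (SD, n = 3), over the stricter level, and the second measured 3.26 on every array, under it. The TFIIF genes both varied between arrays. TfIIFalpha measured 3.73, 3.68 and 4.23 and TfIIFbeta 4.31, 3.93 and 4.57, each with array 2 lowest and array 3 highest. TfIIFalpha was not resolved against the stricter level (limma, adjusted p = 0.18); TfIIFbeta was above it (0.046), but not without replicate 1 (0.20) or replicate 3 (0.091). TfIIS, which rescues arrested Pol II, averaged 5.04 ± 0.023.

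Other initiation factors, listed for comparison, were above background as well. TFIIH opens promoter DNA and phosphorylates Pol II. All 9 of its measured genes were above background and 8 above the stricter level, where 47% and 25.5% of all genes were. The helicase genes hay and Xpd averaged 4.95 ± 0.093 and 4.07 ± 0.016, the kinase gene Cdk7 5.17 ± 0.052 and mrn 5.87 ± 0.066 (SD, n = 3). Tfb4 averaged 2.96 ± 0.11. The 3 genes of the TATA-binding protein family were above background. None was above the stricter level, where 25.5% of all genes were. Tbp averaged 3.26 ± 0.0096, Trf 3.43 ± 0.043 and Trf2 2.97 ± 0.021. Tfb5 was not analysed here.

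Each of the 21 measured polymerase genes, of which Polr2M encodes an associated protein, was above background, and 14 were above the stricter level. Of all genes, 47% and 25.5% were above these levels. The 5 subunits shared between polymerases were all above the stricter level. Those common to all 3 enzymes are encoded by Polr2E (Rpb5), Polr2H (Rpb8), Polr2L (Rpb10) and Polr2K (Rpb12). Polr2E measured 6.41, 6.39 and 6.87. Polr2H measured 6.81, 6.50 and 6.77, and Polr2L 6.62, 6.74 and 7.22. Polr2K had values of 6.44, 5.96 and 7.02, with over 1 log2 unit between arrays 2 and 3. Its stricter call was lost without replicate 1 (limma, adjusted p = 0.058). Polr1C, shared by Pol I and Pol III, measured 4.77, 4.85 and 4.85.

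Only 2 genes for subunits specific to Pol II were measured, beside Polr2M for an associated protein. Polr2J (Rpb11), which pairs with Rpb3 in the assembly platform, measured 7.33, 6.70 and 7.14, and array 2 was the lowest. Polr2G (Rpb7), part of the stalk, measured 5.62, 5.81 and 5.62. Both were above the stricter level. Polr2M (Gdown1), a Pol II-associated protein that restrains initiation in mammals, measured 3.02 on every array, over background only. The genes of the catalytic subunits, Polr2A and Polr2B, and Polr2C and Polr2I were not analysed here.

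Pol I had 5 of 5 measured genes above background and 4 above the stricter level, where 47% and 25.5% of all genes were. Its largest subunit gene, Polr1A, measured 4.82, 4.86 and 5.24, and Polr1B, for the other catalytic subunit, averaged 3.84 ± 0.018 (SD, n = 3). Polr1E (RPA49) averaged 4.50 ± 0.14 and Polr1H (RPA12) measured 3.94 on every array. Polr1F (RPA43), a stalk subunit, measured 3.01 on every array, under the stricter level. All 3 listed Pol I factors were above background, where 47% of all genes were. Tif-IA, which brings Pol I to the ribosomal RNA genes, averaged 6.10 ± 0.087. TAF1B averaged 3.10 ± 0.11, and TAF1C-like measured 2.88 on every array.

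Pol III had 8 of 8 measured genes above background, where 47% of all genes were. Above the stricter level were 3 (37.5%), not far from the 25.5% of all genes. With the highest receptor gene as the base of that level the count was 1, where 21.2% of all genes were above. The catalytic subunit genes Polr3A and Polr3B measured 3.78 on every array and 3.83 ± 0.16 (SD, n = 3). Polr3A was above the stricter level, and Polr3B was not resolved against it (limma, adjusted p = 0.056). With SDs of 0 replaced across all genes, Polr3B was above it too (adjusted p = 0.034). Their Pol I paralogs Polr1A and Polr1B were both above it. The subunits that resemble TFIIF are encoded by Polr3E and Polr3D. Polr3E measured 5.19, 5.19 and 5.42, and Polr3D 3.57, 3.67 and 3.64; both were above the stricter level. The Polr3D call was lost without replicate 2 (adjusted p = 0.091) and without replicate 3 (0.15).

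The initiation subunits of Pol III, encoded by Polr3C, Polr3F and Polr3G, lay between the levels. Polr3C averaged 2.91 ± 0.062 and Polr3F 2.98 ± 0.015 (SD, n = 3), while Polr3G measured 3.38 on every array. Polr3I (RPC17) measured 3.75, 3.73 and 4.11 and was not resolved against the stricter level (limma, adjusted p = 0.092). Of 4 measured Pol III and small nuclear RNA gene factors, 3 were above background, where 47% of all genes were. Brf, a subunit of the Pol III initiation factor TFIIIB, measured 4.10 on every array, Bdp1 averaged 3.54 ± 0.13 and Pbp95 2.67 ± 0.048. Pbp45 measured 2.39 on every array, and Pbp49 was not analysed here.

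Array 2 was most often the lowest among genes above background, in the set and in the data as a whole. Among the 61 genes above background 18 were identical on all arrays and 16 on exactly 2. In the other 27, array 2 held the lowest value in 19 (70.4%). The highest was on array 3 in 15 (55.6%) and on array 1 in 10 (37.0%). Over all genes above background with 3 different values, array 2 was lowest in 60.8% of 2338. Array 3 was highest in 45.6% and array 1 in 42.2%, so array 3 was most often the highest there too, by a smaller margin. Among such genes with a mean of 6 or over, array 1 was highest in 53.2% and array 3 in 38.7%. Median deviations from the gene mean, over genes not identical on all arrays, were 0.025, -0.076 and 0.059 log2 units on arrays 1 to 3 for the set, and 0.012, -0.048 and 0.011 for all genes above background. The median SD was 0.13 in both. An SD over 0.3 occurred in 13.1% of the set and 15.7% of all genes above background. The widest spreads were those of MED10, Taf3, Polr2K and MED26, which all had array 2 lowest and array 3 highest.

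**Figure D4:**
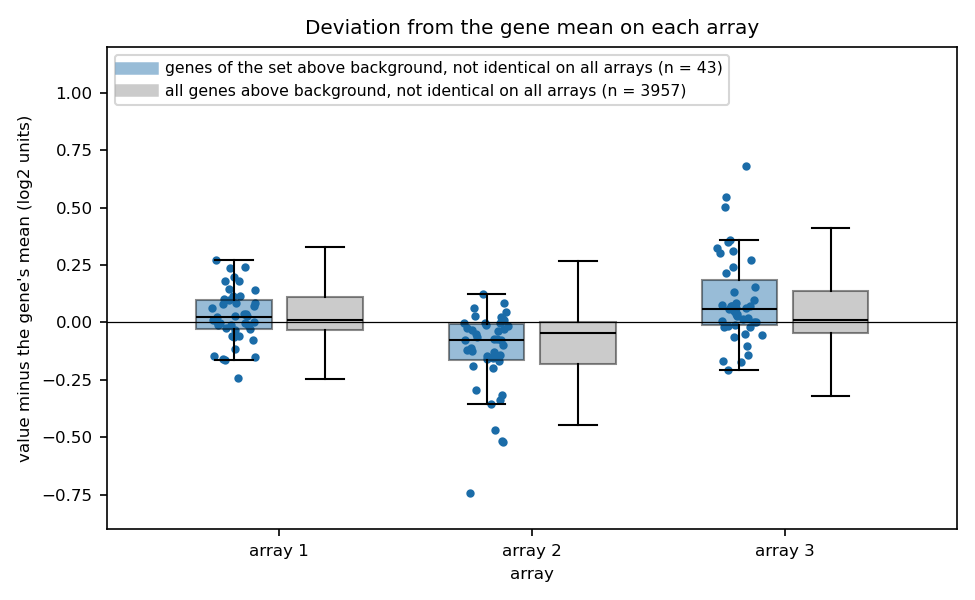
Value minus the gene's mean (y axis, log2 units) on each array for genes above background that were not identical on all arrays: genes of the set (blue, points are genes) and all genes (grey); boxes show quartiles, lines medians, whiskers reach to 1.5 times the interquartile range, and values of single genes beyond them are drawn for the set only. On array 2 both medians lie under 0, at -0.076 and -0.048, while values of some genes lie over 0.

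By symbol, RefSeq lists 79 genes of these families, and 14 of them had no probe set of their own in the annotation used. They include MED9, MED22, MED23, Taf2, Taf11, Polr1D, Polr2A, Polr2B, Polr2C, Polr2D, Polr2F, Polr2I and Polr3K. Of the 14, 5 were on probe sets that also match another gene.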

How the data were processed

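Total RNA from 3 OSS cell samples was labelled with biotin and hybridised to Affymetrix expression arrays, per the labels' protocols. The authors deposited log2 values per probe set; the labels say that scanner files entered custom scripts, and background correction, scaling and summary method are not given in the sources used here. No further scaling was applied, since medians of the arrays lay at 2.399, 2.401 and 2.399. The table held 18952 probe sets, of which 13647 named 1 gene in the platform annotation, 402 several and 4903 none; 0 other value columns were left unused. A gene with several probe sets took the one with the highest mean. All 65 symbols stand in the RefSeq table of assembly Release 6 plus ISO1 MT; no coordinates are given, since the build behind the files is unknown.

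Genes were fitted in limma 3.58.1 (R 4.3.3, intercept-only lmFit and eBayes). limma's moderation is unreliable when most SDs are 0, so an alternative replaced each by the median of the other variances. P-values measure only the spread between these arrays, which may be technical. Pearson correlations between arrays were 0.995, 0.988 and 0.986. Genes and lists were chosen with earlier results of these data known. Every gene of the set could be named; of the other lists, genes not called above background were named, with others chosen after their values were seen. The test was tried on simulated data.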

Additional observations from a re-analysis of the deposited data

Results flagged for a closer look

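Signal also lay in probe sets that match a gene of these families together with another gene, which entered no gene result. Of 7 such probe sets, 6 were above background and 4 above the stricter level (limma). The probe set of Tcs1 and Polr3K averaged 6.72 ± 0.029 (SD, n = 3). That of Polr2D and Ada2a measured 4.60 on every array, while the probe set of Ada2a alone measured 2.39 on every array. That of Taf11 and Gdi measured 4.35 on every array. CG42518 and MED9 shared a pair of probe sets, at 6.01 ± 0.15 and 2.98 ± 0.0048. CG3700 and MED23 shared 1 probe set at 2.53 on every array, 0.040 log2 units over the level, and another that was unresolved at 2.42, 2.42 and 2.79. The signals of the genes on a shared probe set cannot be told apart.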

How the results depend on the processing

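Of 3098 values recomputed for 242 results with 13 alternatives, 2944 had the reported direction and call, or were counts within 1.5 times the reported one. Genes of the set above background numbered 57 to 63, and those above the stricter level 35 to 44; without probe sets of shared sequence, which left 56 genes, they numbered 53 and 33. All genes above background numbered 4163 (of 9966, without probe sets of shared sequence) to 6365 (of 11870, with bacterial controls). Their shares ran from 37.4% to 65.4%, and from 21.2% to 34.9% above the stricter level. The highest shares came without probe sets at the lowest value on every array, which left 8554 genes. Without probe sets of shared sequence the shares were 41.8% and 21.5%. Of the 61 called genes, 56 were called wherever measured; MED1, MED10, Polr3C, Taf1 and Taf7 were not. Leaving out 1 array gave 60 to 62. No paired analysis was possible because the 3 arrays form a single group. Background correction could not be changed, and promoter motifs and protein identity were not run because no sequences were used here. The cause of the following changes was not tested beyond the level's own position. Levels ran from 2.41 (bacterial controls) to 2.79 (highest receptor gene).

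The Pol III count above the stricter level was 1 with the highest receptor gene as base. The kinase module had 1 gene above background at the 99th percentile and with the highest receptor gene, where 42.4% and 37.4% of all genes were. The testis TAF count was 2 with odorant receptors, bacterial controls and the 90th percentile, where 52.3%, 53.6% and 52.5% of all genes were above background. It was 0 at the 99th percentile, with the highest receptor gene and with the pooled spread, where 42.4%, 37.4% and 43.3% were.

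Some differences from the level changed sign. MED4 stood at 0.059, 0.068 and 0.061 log2 units with odorant receptors, bacterial controls and the 90th percentile, at 0.034 with the lowest probe set per gene, and between -0.0061 and 0.016 without 1 array. Taf12L stood at 0.053, 0.062 and 0.054 under the first 3, and between -0.012 and 0.0094 without 1 array. From the stricter level, MED24 differed by 0.045, 0.055, 0.047 and 0.021 and Taf8 by 0.043, 0.053, 0.045 and 0.019 under the same 4. Without 1 array MED24 ranged from -0.024 to 0.0040, Taf8 from -0.022 to 6.6e-05 and MED15 from -0.051 to 0.063. With the lowest probe set per gene, skd stood at -0.018 and Pxn at -0.038. At the 99th percentile, Cdk8 stood at -0.023, mia at -0.086, CycT at -0.021, Cdk12 at -0.023 and, from the stricter level, MED25 at -0.059.

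With the highest receptor gene, MED1 stood at -0.014, Taf7 -0.11, kto -0.026, Cdk8 -0.21, mia -0.27, Pbp95 -0.12, CycT -0.21, ear -0.14, Cdk12 -0.21, Spt3 -0.060, Spt7 -0.23, Sgf29 -0.015, Atac1 -0.017 and elav -0.069. From the stricter level MED25 stood at -0.24, Taf10 -0.16, Polr3A -0.014 and Polr3D -0.17.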

Other observations

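Factors that act on Pol II after initiation were above background in 15 of 16 measured cases and above the stricter level in 11. Over all genes these shares were 47% and 25.5%. CycK, the cyclin partner of Cdk12, averaged 7.12 ± 0.15 and its kinase gene Cdk12 2.58 ± 0.025 (SD, n = 3). The elongation factor genes Su(Tpl) and Rtf1 averaged 6.53 ± 0.50 and 5.54 ± 0.15, and the pausing factor gene TH1 5.92 ± 0.25. The P-TEFb genes Cdk9 and CycT measured 3.54 and 2.58 on every array, and with the SD of 0 replaced CycT was not called (limma, adjusted p = 0.17). The gene not above background was lilli, at 2.40 on every array. The call for ear, at 2.65 ± 0.086, was lost without replicate 1 (limma, adjusted p = 0.11) and without replicate 2 (0.083). Nelf-A and Spt6 were not analysed here.

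SAGA and ATAC, coactivator complexes that acetylate histones, had 14 of 17 measured genes above background and 7 above the stricter level. Over all genes these shares were 47% and 25.5%. Ada3 averaged 5.60 ± 0.36, Saf6 5.11 ± 0.17 and Ada2b, of SAGA, 4.74 ± 0.17 (SD, n = 3). Ada2a, of ATAC, and Spt20 measured 2.39 on every array, and Spt7 was unresolved at 2.56 ± 0.065 (limma, adjusted p = 0.13). Gcn5, Nipped-A, Chrac-14, Ada1-1 and Ada1-2 were not analysed here.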
